A study of Mus musculus with 9 samples.

Results

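The genes described here are 10 immediate early genes, Fos, Fosb, Jun, Junb, Egr1, Ier2, Ier3, Atf3, Dusp1 and Zfp36. They were taken by gene name and are 10 of the 49326 named genes in the count tables. The study sequenced polyA+ RNA of mouse embryonic stem cells, taken at day 0, and of embryoid bodies grown from them and taken at day 4 and day 8. These are aggregates in which such cells begin to form the tissues of the embryo. There were 6 groups in 9 libraries, namely wild type at days 0, 4 and 8 with 1 library each, and Hnrnpll-/- at days 0, 4 and 8 with 2 libraries each. The knockout libraries come from a line called G6 and a line called H8, and the labels do not say whether these are independent clones or give the parental strain. All cells were grown as stem cells in fetal bovine serum with added leukemia inhibitory factor, bodies were made in hanging drops, and RNA was taken with Trizol. The product of Hnrnpll is a heterogeneous nuclear ribonucleoprotein that binds RNA and regulates splicing.

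Immediate early genes are transcribed within minutes of a stimulus such as serum, a growth factor or stress, without new protein synthesis, and their short-lived mRNAs disappear soon after. Serum response factor with its ternary complex partners, and CREB, are the textbook activators of many of them, downstream of the ERK and p38 kinases. Fos, Fosb, Jun, Junb and Atf3 encode basic leucine zipper proteins that pair to form AP-1 and related transcription factors, Egr1 encodes a zinc finger transcription factor, and Ier2 a nuclear protein. Ier3 encodes a small protein tied to cell survival, Dusp1 a phosphatase that switches off MAP kinases, and Zfp36 a protein that binds AU-rich elements and speeds the decay of mRNAs, so these last act as brakes on the response.

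Each gene is protein coding in GENCODE M21 on the mm10 build. The AP-1 genes are Fos at chr12:85473890-85477273 on the plus strand and, on the minus strand, Fosb at chr7:19302696-19310051, Jun at chr4:95049034-95052222, Junb at chr8:84974484-84978718 and Atf3 at chr1:191170296-191218039. Egr1 lies at chr18:34859823-34864984 (plus), Ier2 at chr8:84661331-84662852 (minus) and Ier3 at chr17:35821684-35822923 (plus). Dusp1 lies at chr17:26505590-26562128 (minus) and Zfp36 at chr7:28376784-28380253 (minus). Fos, Fosb, Egr1, Ier2 and Ier3 overlap no other annotated gene.

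The other 5 genes each overlap at least 1 other gene. Because the use of strand in counting is not given in the sources used here, their levels are less certain. Junb overlaps Prdx2, an antioxidant enzyme gene on the opposite strand with 127 to 299 CPM, the count scaled to the size of the library. Dusp1 overlaps 4 genes. Ergic1, which had 82.4 to 106 CPM, and the processed pseudogene Gm8225 lie on the opposite strand. The processed pseudogene AC122252.4 and the sense intronic AC122252.1 lie on the strand of Dusp1, so strand alone would not separate them from it. Jun overlaps the antisense gene Junos (0.241 to 0.828 CPM), Zfp36 overlaps Gm44710 (0 to 0.259 CPM), and Atf3 overlaps the small RNA gene Gm24748.

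Promoter windows of 300 bases that end 50 bases past the RefSeq start were found for 8 of the 10 genes. They are on GRCm38.p6, the assembly behind mm10. The RefSeq start can differ from the end of the GENCODE gene given above. For Dusp1, Atf3 and Zfp36 the whole window lies inside the GENCODE gene. They were searched on both strands for the CRE (TGACGTCA), the AP-1 site (TGANTCA), the EGR site (GCGNGGGCG), the TATA box (TATAAA) and the CArG box bound by serum response factor. The windows of Fos and Fosb are printed because these genes fell together in the knockout libraries, that of Ier3 because it rose from day 0 to day 4 while they fell, and that of Zfp36 because it alone held 2 of the motifs. Capitals mark the motif matches, and all read 5′ to 3′ on the strand of the gene. The Fos window (chr12:85473640-85473939, plus) has a TATA box at position -33 from the start site, counted to its first base,, and the Fosb window (chr7:19309996-19310295, minus) has an EGR site at -50. The Zfp36 window (chr7:28379179-28379478, minus) has an EGR site at -105 and a CArG box at -58. The Ier3 window (chr17:35821463-35821762, plus) has none of the 5 motifs.
Fos: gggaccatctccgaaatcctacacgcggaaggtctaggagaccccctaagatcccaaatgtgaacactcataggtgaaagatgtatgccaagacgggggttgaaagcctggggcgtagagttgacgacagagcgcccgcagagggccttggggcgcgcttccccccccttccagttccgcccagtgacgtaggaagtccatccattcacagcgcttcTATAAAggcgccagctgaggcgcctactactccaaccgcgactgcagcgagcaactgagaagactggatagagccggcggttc
Fosb: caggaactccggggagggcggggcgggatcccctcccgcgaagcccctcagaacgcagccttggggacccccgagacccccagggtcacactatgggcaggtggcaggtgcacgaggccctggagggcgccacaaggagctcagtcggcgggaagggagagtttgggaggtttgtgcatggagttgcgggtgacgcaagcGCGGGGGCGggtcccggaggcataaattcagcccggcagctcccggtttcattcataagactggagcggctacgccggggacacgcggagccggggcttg
Ier3: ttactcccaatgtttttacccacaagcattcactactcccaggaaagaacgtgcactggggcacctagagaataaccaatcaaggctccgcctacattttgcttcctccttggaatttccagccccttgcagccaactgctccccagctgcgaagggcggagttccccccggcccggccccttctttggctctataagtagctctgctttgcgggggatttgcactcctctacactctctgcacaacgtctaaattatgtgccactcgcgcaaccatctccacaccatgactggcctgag
Zfp36: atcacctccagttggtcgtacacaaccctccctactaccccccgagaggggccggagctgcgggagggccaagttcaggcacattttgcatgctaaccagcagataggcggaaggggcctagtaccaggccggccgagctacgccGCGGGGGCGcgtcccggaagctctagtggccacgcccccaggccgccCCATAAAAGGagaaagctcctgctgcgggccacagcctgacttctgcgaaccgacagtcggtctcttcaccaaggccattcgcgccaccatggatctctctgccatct

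Of the other windows, Dusp1 (chr17:26508423-26508722, minus) has a CRE at -143 and Junb has a TATA box at its start. In none of the members did a match overlap another. The CRE was in 1 of 8 member windows and in 1.79% of all 32851 windows of this length, and the CArG box was in 1 of 8 and in 1.63%. The EGR site was in 2 of 8 against 5.55%, the TATA box in 2 of 8 against 13.6%, and the AP-1 site in 0 of 8 against 7.81%. These matches describe the letters in the windows and were not tested as binding sites. Egr1 and Ier2 had no window and were not searched. Sites farther upstream than the windows reach were not searched in any gene, so a motif not found here can still lie there.

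The libraries held 54202944 to 184890212 counts in named genes. The 2 knockout libraries of day 0 stood apart. They were the shallowest, at 54202944 and 61611725 against at least 113023429. In them 43.5% and 42.6% of low counts (up to 40) were multiples of 4, against 30.6% to 33.2% elsewhere. The share would be 25% if all low counts were equally frequent, which was not tested. The median processed pseudogene had 0.203 and 0.211 CPM in them against 0.439 to 0.660. At day 0 these differences and the genotype cannot be told apart. Hnrnpll itself, in TPM (abundance per transcript length), was at 77.1, 101 and 112 in wild type at days 0, 4 and 8, and in the knockout lines G6 and H8 at 54.9 and 24.5, 61.2 and 38.6, and 56.5 and 43.5. Thus it was lower in every knockout library and absent from none. Where the edit lies is not given in the sources used here, so remaining reads do not test the knockout. Pluripotency markers (6 of 6 at 1 TPM or more in every library) summed to 6137 TPM in wild type and 8177 and 8483 in knockout at day 0. By day 8 they summed to 1124 in wild type and to 6822 and 6409 in knockout.

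**Figure D1:**
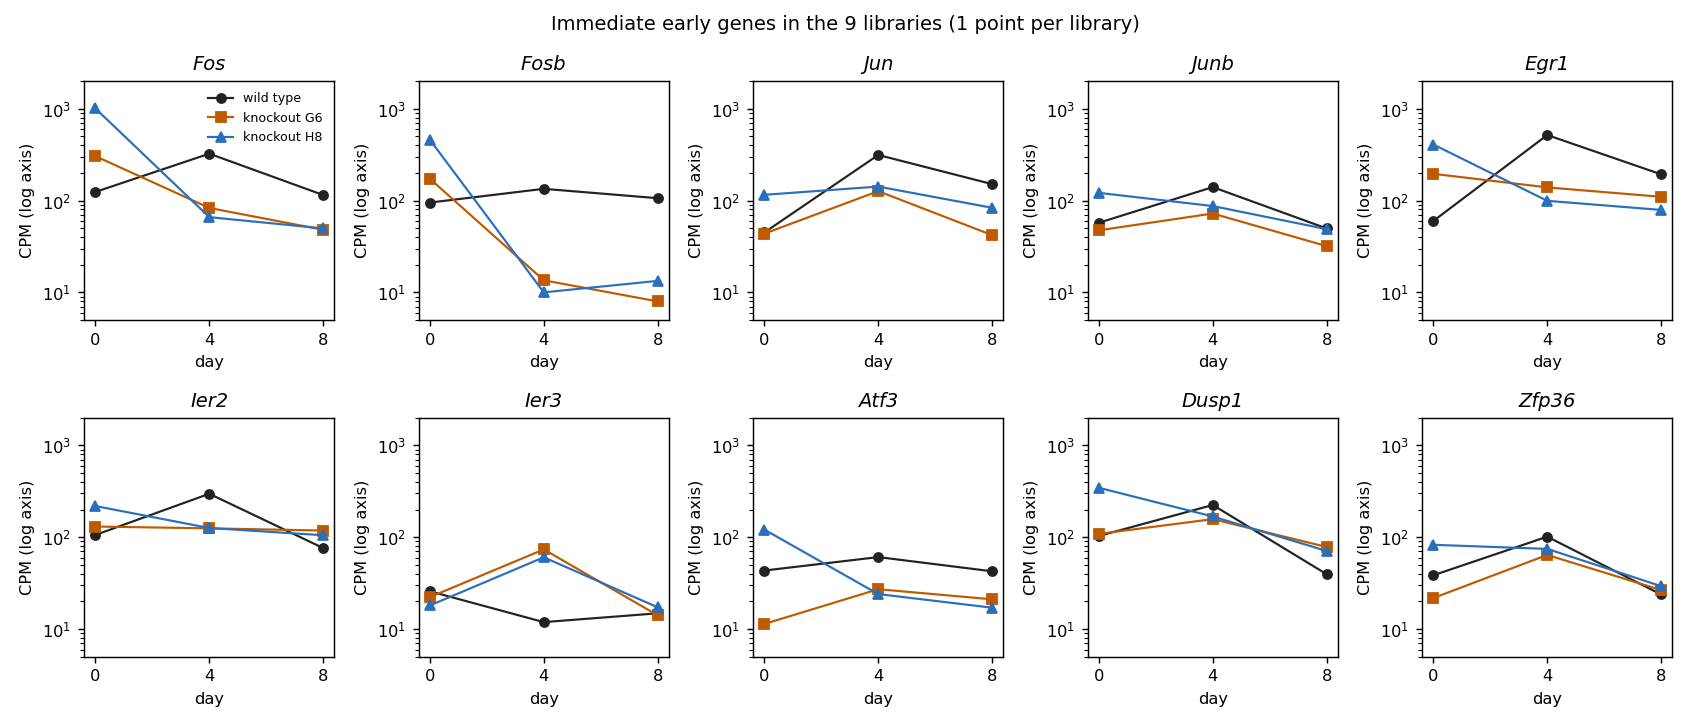
Each panel plots 1 gene in CPM on a log axis against day, with 1 point per library for wild type (black circles), knockout G6 (orange squares) and knockout H8 (blue triangles). Fosb in knockout fell from 172 and 458 CPM at day 0 to 13.6 and 10.02 CPM by day 4, while in wild type it stayed between 95.1 and 134 CPM.

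All 9 members with TPM values were expressed in wild-type stem cells. In wild type at day 0, TPM was highest for Ier2 at 129, followed by Fos at 110, Dusp1 at 91.1, Fosb at 51.1, Ier3 at 42.1 and Atf3 at 40.7. Jun at 26.0, Zfp36 at 25.6 and Egr1 at 24.7 TPM were the lowest 3 and lay close together. With 1 wild-type library a day, no spread exists to separate neighbours in this order. Junb has no row in the TPM tables and is given in CPM only.

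In wild type most of these genes had their maximum at day 4. From day 0 to day 4, 6 of the 9 members with TPM values were more than 2-fold higher on the log2(TPM + 1) scale, where 4.78% of all genes were. Egr1 had 24.7 and 201 TPM, a log2 difference of 2.98, and Jun 26.0 and 172 TPM, a difference of 2.68. Fos (1.41), Ier2 (1.40), Zfp36 (1.31) and Dusp1 (1.17) followed, while Atf3 (0.39) and Fosb (0.35) differed little and Ier3 was lower (-1.15). From day 4 to day 8, 5 of the 9 were more than 2-fold lower, where 4.35% of all genes were. Dusp1 was lower by the most, at log2 -2.29, followed by Zfp36 (-1.86), Ier2 (-1.76), Fos (-1.35) and Egr1 (-1.22). These are differences between single libraries and carry no test.

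Fosb encodes the AP-1 subunit whose level changed most. In wild type it had 51.1, 65.5 and 59.0 TPM at days 0, 4 and 8. In knockout, G6 and H8 had 94.6 and 237 TPM at day 0, 7.09 and 5.06 TPM at day 4, and 3.94 and 7.004 TPM at day 8. Both knockout libraries lay above wild type at day 0 and below it at day 4 and day 8, and the 4 knockout libraries of days 4 and 8 were the lowest of the 9.

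Against wild type, knockout Fosb was 9.94-fold lower at day 8 (log2 -3.31, SE 0.574, edgeR adjusted p = 0.0278). It was the only member to pass the threshold of 0.05 at that day, 1 of 10, where 9.87% of all 24794 genes passed. At day 4 the difference was of similar size, log2 -3.51 (SE 0.577), but the edgeR adjusted p was 0.132. From day 0 to day 4 in knockout Fosb fell 26.7-fold (log2 -4.74, SE 0.562, edgeR adjusted p = 0.0059), and from day 0 to day 8 it fell 29.5-fold (log2 -4.88, SE 0.565, edgeR adjusted p = 0.00814). The genotype difference itself changed between day 0 and day 8, by log2 -5.04 (SE 0.898, edgeR adjusted p = 0.0394). With genotype effects held equal over the days, Fosb was at log2 -2.48 with an edgeR adjusted p of 0.178.

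The day 8 call of Fosb rested on the few libraries. Without knockout day 4 G6 or H8 the edgeR adjusted p was 0.0698 or 0.0687, and without day 8 G6 or H8 it was 0.122 or 0.0705. Leaving out any 1 library moved the log2 difference of Fosb by at most 0.38. In those 4 fits the share of all genes called at day 8 was 0%, 0%, 0.00816% and 2.30%. Without both day 0 knockout libraries Fosb was at log2 -3.33 with an edgeR adjusted p of 0.0188, in a fit added after seeing the data. The spread of that fit comes from days 4 and 8 alone, and 17.6% of all genes passed. The call from day 0 to day 4 was also lost without knockout day 4 G6 (0.0504) or H8 (0.0592), and that from day 0 to day 8 without day 8 G6 (0.0564).

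Fos, the partner of Jun in the classical AP-1 dimer, had 110, 294 and 115 TPM in wild type at days 0, 4 and 8. In knockout, G6 and H8 had 293 and 855 TPM at day 0, 95.8 and 69.2 TPM at day 4, and 48.3 and 51.9 TPM at day 8. The H8 library of day 0 was the highest of the 9 for Fos, and as with Fosb the 4 later knockout libraries were the lowest.

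From day 0 to day 4 knockout Fos fell 8.78-fold (log2 -3.14, SE 0.545, edgeR adjusted p = 0.0182) and from day 0 to day 8 it fell 13.4-fold (log2 -3.74, SE 0.561, edgeR adjusted p = 0.0171). The first call was lost without day 4 G6 or H8 (adjusted p of 0.104 and 0.118). The second was lost without any one of the 4 knockout libraries of days 4 and 8 (0.0503 to 0.110). Against wild type Fos was at log2 2.40 (SE 0.697) at day 0, -2.12 (SE 0.592) at day 4 and -1.23 (SE 0.596) at day 8, with edgeR adjusted p of 0.107, 0.243 and 0.228. At day 0 its log2 difference was 3.01 without G6 and 1.27 without H8. The adjusted p of these fits (0.0162 and 0.0431) takes its spread from days 4 and 8 alone, since day 0 is then 1 library against 1, and is no support for the call. At day 8 Fos passed without both day 0 knockout libraries (log2 -1.25, edgeR adjusted p 0.0215), in a fit added after seeing the data. The spread of that fit comes from days 4 and 8 alone, and 17.6% of all genes passed against 9.87% on all libraries.

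Jun, Junb and Atf3 passed the threshold in none of the 10 comparisons fitted on all libraries. Jun, which can pair with Fos or with itself, had 26.0, 172 and 94.3 TPM in wild type, and in G6 and H8 it had 26.0 and 64.3 TPM on day 0, then 74.9 and 80.0 on day 4 and finally 24.0 and 48.2 on day 8. Both knockout libraries were below wild type at days 4 and 8, with log2 -1.22 (SE 0.591) and -1.27 (SE 0.591). Junb, an AP-1 subunit that often opposes Jun, had 57.3, 140 and 49.7 CPM in wild type, and 47.5 and 121, 72.3 and 87.2, and 31.9 and 48.8 CPM in G6 and H8 over the same days. It lay below wild type in both lines at day 4 and day 8, though H8 at day 8 differed from wild type by only log2 -0.03.

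Atf3, a stress-induced repressor, separated the lines rather than the genotypes at day 0. It had 40.7, 53.6 and 43.2 TPM in wild type, and in G6 and H8 it had 10.9 and 109 TPM at day 0, 25.9 and 22.1 TPM at day 4, and 19.4 and 15.9 TPM at day 8. The 2 day 0 knockout libraries were the lowest and the highest of the 9. The sign of its day 0 difference therefore depends on the library, being log2 -1.95 (edgeR adjusted p 0.0293) without H8 and 1.47 (0.0386) without G6. These fits set 1 library against 1 at day 0, so their spread comes only from days 4 and 8, and the wide gap between the day 0 lines is left out of it. With both lines the SE was 1.13 and the adjusted p 0.788. At day 4 and day 8 both lines were lower than wild type, with log2 -1.25 (SE 1.07) and -1.16 (SE 1.07).

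Egr1, whose product binds GC-rich promoter sites, had 24.7, 201 and 85.7 TPM in wild type. In knockout, G6 and H8 had 82.6 and 161 TPM at day 0, 58.5 and 39.8 TPM at day 4, and 44.6 and 32.5 TPM at day 8. Thus both lines were above wild type at day 0 and below it later, and the highest day was day 4 in wild type and day 0 in both knockout lines.

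The Egr1 difference was log2 2.33 (SE 0.519) at day 0, -2.12 (SE 0.442) at day 4 and -1.03 (SE 0.446) at day 8, with edgeR adjusted p of 0.0602, 0.167 and 0.186. The change in that difference from day 0 to day 4 was log2 -4.44 (adjusted p 0.0630) and from day 0 to day 8 log2 -3.36 (adjusted p 0.0501). These values sit close to the threshold. In log2(TPM + 1) with limma the day 0 difference of Egr1 passed (log2 2.18, adjusted p 0.0434), as did its change to day 4 (log2 -4.22, adjusted p 0.0453) and to day 8 (log2 -3.33, adjusted p 0.0357). That setting called 7.58%, 1.51% and 8.09% of all genes in these comparisons. The day 0 difference did not pass in limma-voom (adjusted p 0.0614). In edgeR it did not pass with total count scaling (0.0539) or the line as a block (0.0761).

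Ier2 had 129, 341 and 99.9 TPM in wild type, and in G6 and H8 it had 163 and 255 TPM on day 0, then 155 and 149 on day 4 and finally 142 and 127 on day 8. Both knockout libraries were above wild type at days 0 and 8 and below it at day 4. In knockout at days 4 and 8, where means were 152 ± 4.15 and 134 ± 10.04 TPM (SD, n = 2), it was nearly flat. The day 4 difference was log2 -1.24 (SE 0.292, edgeR adjusted p 0.188).

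Ier3 stood on the other side of wild type from the other members at day 4. It had 42.1, 18.4 and 26.2 TPM in wild type, and in G6 and H8 it had 37.5 and 28.5 TPM on day 0, then 123 and 96.3 on day 4 and finally 22.8 and 28.2 on day 8. The 2 knockout libraries of day 4 stood above the other 7, whose highest was 42.1 TPM, and the wild-type library of day 4 was the lowest of all.

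Knockout Ier3 rose 3.32-fold from day 0 to day 4 (log2 1.73, SE 0.215, edgeR adjusted p = 0.00674) and fell 4.27-fold from day 4 to day 8 (log2 -2.09, SE 0.217, edgeR adjusted p = 0.0361). Against wild type at day 4 it was at log2 2.49 (SE 0.291), 5.63-fold, with an edgeR adjusted p of 0.109. In limma-voom that difference passed (log2 2.49, adjusted p 0.0441). The change in the genotype difference from day 0 to day 4 was log2 2.85 (SE 0.371, edgeR adjusted p = 0.0495). With the line as a replicate block its edgeR adjusted p was 0.0635, and it passed in 5 of 16 alternatives. The rise to day 4 was lost without day 4 G6 (adjusted p 0.0563), and the fall to day 8 was lost without any one of the 4 knockout libraries of days 4 and 8 (0.149 to 0.274). Leaving out any 1 library moved the log2 value of either Ier3 step by at most 0.15, and in the fits that lost the fall at most 0.00816% of all genes were called.

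Dusp1 and Zfp36, the genes that restrain the response, passed in none of the 10 comparisons fitted on all libraries. Dusp1 had 91.1, 207 and 41.4 TPM in wild type, and in G6 and H8 it had 104 and 300 TPM on day 0, then 155 and 161 on day 4 and finally 73.7 and 67.0 on day 8. Both lines were above wild type at day 8, by log2 0.91 (SE 0.614, edgeR adjusted p 0.372). This passed without both day 0 knockout libraries (log2 0.90, edgeR adjusted p 0.0266), in a fit added after seeing the data. The spread of that fit comes from days 4 and 8 alone, and 17.6% of all genes passed against 9.87% on all libraries. Zfp36 had 25.6, 64.9 and 17.2 TPM in wild type, and 15.2 and 53.2, 44.7 and 49.4, and 17.5 and 19.8 TPM in G6 and H8. Its 3 libraries of day 8 lay between 17.2 and 19.8 TPM, a log2 difference of 0.23 (SE 0.683). It thus kept the wild-type pattern of a maximum at day 4 in G6, while in H8 day 0 and day 4 were close.

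**Figure D2:**
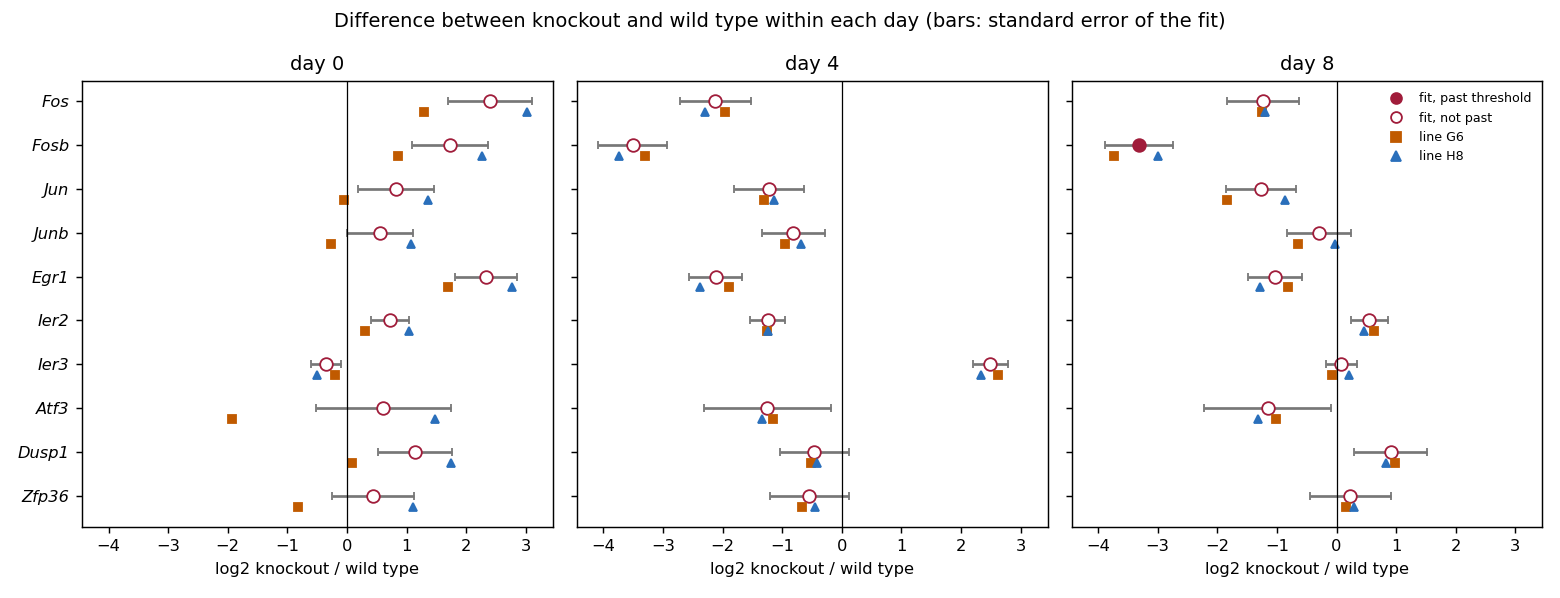
For each day, circles show the fitted log2 ratio of knockout to wild type, filled where the edgeR adjusted p is under 0.05. Bars show the standard error derived from the F statistic. Squares and triangles show lines G6 and H8, each against the wild-type library of that day. At day 4 all members but Ier3 are at or below log2 -0.46, and Fosb at day 8 is the only filled circle.

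Across the 10 genes, the side on which knockout lay changed with the day. At day 0 both lines were above wild type for 5 genes (Fos, Fosb, Egr1, Ier2 and Dusp1), as for 32.8% of all genes, and below it for Ier3. In edgeR 0 of 10 passed, where 5.43% of all genes did. There were 3 with an unadjusted p under 0.05 (Fos, Fosb and Egr1), as for 24.4% of all genes. The same 3 passed in DESeq2, which called 16.7% of the genes it gave an adjusted p. In limma-voom 0 passed, where 3.82% of all genes did. At day 4 both lines were below wild type for 9 genes, as for 36.4% of all genes, and above it for Ier3. Here too 0 of 10 passed in edgeR, where 0.00807% of all genes (2 of 24794) did, with 5 at an unadjusted p under 0.05 beside 13.5% of all genes. DESeq2 called 5, namely Fos, Fosb, Egr1 and Ier2 lower and Ier3 higher, beside 6.45% of the genes it gave an adjusted p. Limma-voom called 1, Ier3, beside 0.226% of all genes.

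At day 8 both lines were below wild type for 6 genes, as for 40.3% of all genes, and above it for Ier2, Dusp1 and Zfp36. The median log2 difference of the members was 0.77 at day 0, -1.23 at day 4 and -0.67 at day 8, beside -0.02, 0.07 and 0.08 over all genes. Without both day 0 knockout libraries, 4 of 10 passed at day 8, where 17.6% of all genes did, namely Fos, Fosb and Atf3 lower and Dusp1 higher. That fit was added after seeing the data and takes its spread from days 4 and 8 alone. Over all days 0 of 10 passed in edgeR (0.984% of all genes) and 1 had an unadjusted p under 0.05 (19.7% of all genes). DESeq2 called 1 (14.6% of the genes it gave an adjusted p). The gene was Fosb in both cases.

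Primitive streak markers, which mark cells entering the germ layers, differed between the genotypes at day 4. All 5 were at 1 TPM or more in wild type and in H8, and 2 were in G6, with Mesp1 at 0 in G6. They summed to 1519 TPM in wild type against 52.6 in G6 and 121 in H8. By day 8 the sums were close, at 24.1 TPM against 18.1 and 26.9. At day 8 the cardiomyocyte list (5 of 5 at 1 TPM or more in wild type) summed to 234 TPM against 7.01 and 9.95, and the endothelial and blood list (6 of 6) to 664 against 51.1 and 51.9, with Hbb-bh1 and Hba-x at 0 in G6. Fibroblast and feeder markers (7 of 7 in wild type) summed to 498 TPM against 14.5 and 40.1 at day 8, with Lum at 0 in G6, and to 168 against 135 and 70.5 at day 0, with Lum at 0 in both lines. At day 4 they summed to 11.1 TPM in wild type against 18.5 and 23.1. The neural list summed to 70.35 TPM against 68.6 and 88.6 at day 4, and to 71.6 against 29.9 and 44.7 at day 8. The macrophage list summed to 14.4 TPM against 41.3 and 40.2 at day 4, with 1 of 5 at 1 TPM or more in each library. The yolk sac and visceral endoderm list summed to 47.55 TPM against 15.0 and 7.14 at day 4, and to 274.6 against 28.9 and 39.0 at day 8. The trophoblast list summed to 23.0 TPM against 4.99 and 6.07 at day 4, and to 58.2 against 33.0 and 41.5 at day 8. Pluripotency markers summed to 2450 TPM against 3238 and 4009 at day 4. The part of these cells in the differences of the 10 genes was not tested. In bulk libraries, fewer cells of a type and less RNA per cell cannot be told apart.

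In the knockout course from day 0 to day 4, 3 of 10 passed (Fos and Fosb lower, Ier3 higher), where 14.7% of all genes did. From day 4 to day 8 only Ier3 passed, 1 of 10 against 0.311%, and all 10 had a fitted value below 0, with a median of log2 -0.79 beside 0.01 over all genes. From day 0 to day 8, Fos and Fosb passed, 2 of 10 against 7.90%. This last comparison shares its libraries with the first and second. The genotype difference changed between day 0 and day 4 for 1 of 10, Ier3, against 0.504% of all genes, and between day 0 and day 8 for 1 of 10, Fosb, against 4.70%. Between day 4 and day 8 it did so in edgeR for 0 of 10 members, beside 0% (0 of 24794) of all genes. In that comparison Ier2 and Ier3 had an unadjusted p under 0.05, as did 16.3% of all genes. Both passed in DESeq2, which called 7.53% of the genes it gave an adjusted p. Limma-voom called 0 members and 0% of all genes.

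The lines G6 and H8 differed most at day 0, and in 1 direction. H8 was higher for 9 of the 10 genes, Ier3 being the exception, and past 2-fold for 8 of 10, where 14.1% of all genes were higher in H8 past 2-fold. Atf3 differed most, at 10.6-fold, followed by Zfp36 at 3.79-fold, Fos at 3.31-fold and Dusp1 at 3.17-fold. Fosb, Jun, Junb and Egr1 were 2.66, 2.64, 2.56 and 2.08-fold higher in H8, and Ier2 1.67-fold. The median absolute difference of the members was log2 1.41 beside 0.46 over all genes. At day 4, 0 of 10 were past 2-fold (6.48% of all genes), and the median absolute difference was log2 0.24 beside 0.28. At day 8 likewise 0 of 10 were (11.2% of all genes), and Jun at 1.98-fold came nearest. These line differences have 1 library on each side, so no test was made. The day 0 libraries that differ here are also the shallow ones described above, and the part of their depth in the difference was not tested.

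**Figure D3:**
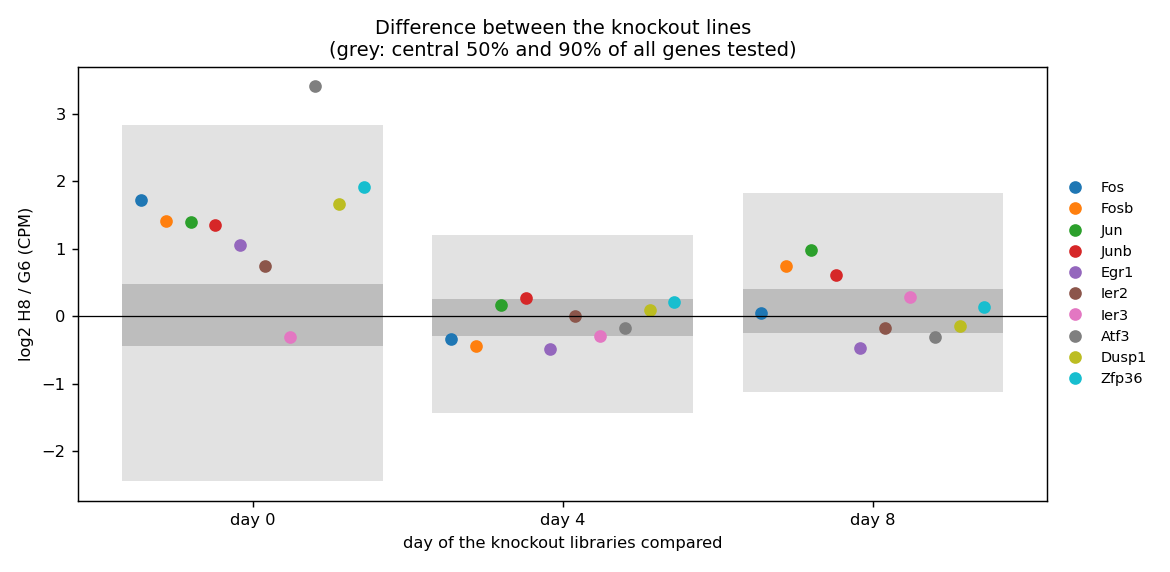
Points show the log2 ratio of CPM in H8 to that in G6 for the 10 genes at each day, over grey bands that hold the central 50% and 90% of all genes tested. At day 0, 9 points lie above 0 and Atf3, at 3.41, lies above the 90% band, whereas at days 4 and 8 all points lie within it.

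The highest library was wild type at day 4 for 5 genes (Jun, Junb, Egr1, Ier2 and Zfp36), knockout H8 at day 0 for 4 (Fos, Fosb, Atf3 and Dusp1), and knockout G6 at day 4 for Ier3. The ratio of the highest to the lowest CPM was largest for Fosb at 57.3, then Fos at 20.9 and Atf3 at 10.6, and least for Ier2 at 3.90. Over the 9 libraries the pairs most alike in log2(CPM + 1) were Junb with Zfp36 (Pearson r = 0.923) and Fos with Fosb (0.919), and the pair least alike was Fosb with Ier3 (-0.431). Jun was only loosely related to its dimer partner Fos, at r = 0.239. Libraries share their depth, line and day, the 2 day 0 knockout libraries lie apart for several genes, and no p is given.

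**Figure D4:**
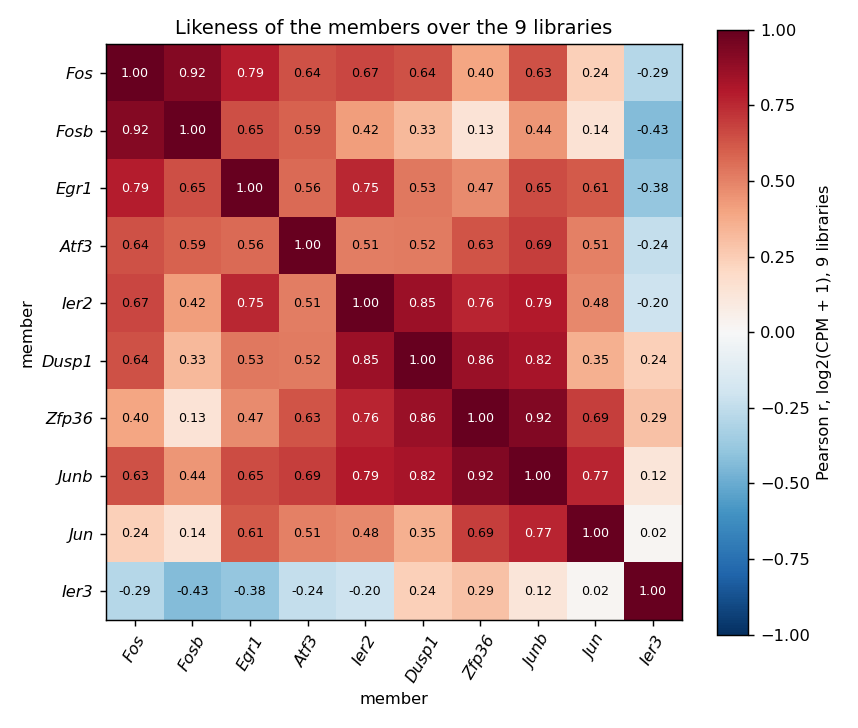
The heatmap gives Pearson r between each pair of the 10 genes over the 9 libraries in log2(CPM + 1), from blue at -1 to red at 1. Fos with Fosb (0.919) and Junb, Dusp1 and Zfp36 (0.825 to 0.923) stand out in red, and Ier3 is pale or blue against every other gene, from -0.431 to 0.292.

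Other genes with a mean of at least 5 TPM were ranked by their likeness to each member in log2(TPM + 1). Predicted genes (Gm, Rik and clone names) and the members were left out. The gene whose pattern over the 9 libraries was most like that of Fos was Malat1 (r = 0.977), a nuclear long noncoding RNA. Malat1 had 230, 376 and 294 TPM in wild type, and 408 and 577, 259 and 247, and 191 and 182 TPM in G6 and H8. Like Fos it was highest in H8 at day 0 and lowest in the knockout libraries of day 8. Its part in the Fos differences was not tested. The nearest to Fosb was Rptor (0.930), to Jun Rhob (0.939), to Egr1 Wdr83os (0.958) and to Ier2 Pde4d (0.949). The nearest to Ier3 was Adm (0.970), followed by Madd (0.944) and Ankrd37 (0.931). Atf3 was nearest to Eif1 (0.964), Dusp1 to Jund (0.940), itself an AP-1 gene, and Zfp36 to Chac1 (0.967). Each r was picked as the highest among all these genes over only 9 libraries. Such a pick yields high values by its making, and no p is given.

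A further list of immediate early genes held 40 names, with Ccn1 and Ccn2 also entered as Cyr61 and Ctgf. Of the 38 tested, 0 were higher and 3 lower in knockout at day 0, where 1.11% of all genes were higher and 4.33% lower. The 3 were Id2 (log2 -1.72, edgeR adjusted p 0.0155), Csrnp1 (-1.52, 0.0391) and Id3 (-1.94, 0.0481). At day 4, 0 passed in edgeR, with 12 at an unadjusted p under 0.05 beside 13.5% of all genes. At day 8, where 5.01% of all genes were higher and 4.86% lower, 2 were higher, Egr4 (adjusted p 0.0281) and Klf2 (log2 2.08, 0.0468), and Id2 was lower (-1.79, 0.0191). Egr4 had 0 counts in the wild-type library of that day, so its fitted fold is not given. From day 0 to day 4 in knockout 5 rose and 6 fell, where 9.56% of all genes rose and 5.16% fell, among them Id2 (log2 2.58, 0.00197) and Id1 (1.95, 0.00313), which rose, and Klf4 (-4.73, 0.00466), which fell. Id2 and Id3 encode inhibitors of differentiation-promoting factors, and Klf4 a factor of the stem cell state.

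The upstream list holds serum response factor, ternary complex, MRTF and CREB activators with their kinases, of which 24 were tested. At day 0, 0 were higher and 1 lower, where 1.11% of all genes were higher and 4.33% lower. The gene was Mapk14 (log2 -1.56, edgeR adjusted p 0.00964), which encodes p38 alpha. In that list 4 of 24 were lower at day 8, where 4.86% of all genes were, namely Mapk14 (-1.55, 0.0175), the ternary complex factor Elk3 (-2.36, 0.0234), Mapkapk2 (-1.43, 0.0331), a kinase downstream of p38, and Mrtfb (-1.20, 0.0419). From day 0 to day 4 in knockout 3 rose and 4 fell, where 9.56% of all genes rose and 5.16% fell, among them Mapk14 (1.45, 0.00407), which rose, and Elk3 (-1.38, 0.0375), which fell. Of 18 ERK feedback and delayed target genes, Spry4 was higher at day 0 (1.64, 0.0228) and at day 8 (1.49, 0.0259). Dusp4 was lower at day 0 (-1.85, 0.0436) and Dusp2 was lower at day 8 (-2.52, 0.0341). Of all genes, 1.11% were higher and 4.33% lower at day 0, and 5.01% and 4.86% at day 8. At day 4 edgeR called 0 in both lists, where it called 0.00807% of all genes. There were 4 and 3 genes at an unadjusted p under 0.05, beside 13.5% of all genes. Of 20 other bZIP genes that can pair with AP-1 proteins, 0 passed within any day in edgeR, with 3, 2 and 6 at an unadjusted p under 0.05 at days 0, 4 and 8, beside 24.4%, 13.5% and 29.7% of all genes.

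The 12 targets of serum response factor in the actin cytoskeleton were tested as a separate list. At day 0, 6 were lower and 0 higher in knockout, where 4.33% of all genes were lower, with a list median of log2 -1.71 beside -0.02 over all genes. Among them were Fhl2 (-2.58, edgeR adjusted p 0.0121), Cnn2 (-1.81, 0.0139), Tagln (-2.09, 0.0229) and Flna (-0.96, 0.0193). At day 8, 4 of 12 were lower beside 4.86% of all genes, and at day 4 edgeR called 0, with 4 at an unadjusted p under 0.05 beside 13.5%. Within knockout, 5 of 12 rose and 0 fell from day 0 to day 4, where 9.56% of all genes rose, and 4 rose and 0 fell from day 0 to day 8, where 5.92% did. The fibroblast markers given above were also lower in knockout at day 0 and day 8. At day 4 they were higher in knockout (11.1 TPM in wild type against 18.5 and 23.1), where the list median was log2 -0.51. Their part in this was not tested. Of 11 genes of the Zfp36 family and of mRNA decay, 1 was lower at day 0, Zfp36l3 (-4.22, 0.0244), beside 4.33% of all genes. At day 8, 1 was lower, the deadenylase gene Cnot7 (-1.02, 0.0301), beside 4.86%. Of 10 heat shock and stress genes 0 passed at day 0 in edgeR, with 2 at an unadjusted p under 0.05 beside 24.4% of all genes, and 4 were higher at day 8 beside 5.01%, among them Hspb1 (2.09, 0.0200) and Hspa1b (1.70, 0.0445).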

How the data were processed

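Read counts and TPM (abundance per transcript length) per gene were analysed for the 9 libraries. The submitters' processing notes name HISAT2 2.0.5, StringTie 1.3.3b and mm10; what each did, which annotation was used and whether strand was read are not given in the sources used here. The authors deposited whole-number counts with no scaling, and deposited TPM values whose library sums ran from 999787 to 1000218. The 259 rows of the count tables with no gene name (0.0242% to 0.0398% of counts) were left out, and 15 count-table genes, Junb among them, have no TPM row. All 49326 named identifiers matched GENCODE M21. No column was left unmapped.

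A gene was kept if 2 or more libraries reached 0.0791 CPM, which is 10 counts at the median depth, and this left 24794, all 10 members included. After TMM scaling, the two-sided quasi-likelihood test of edgeR 4.0.16 (with limma 3.58.1 under R 4.3.3) was run in 1 fit with a mean per group, with Benjamini-Hochberg adjustment over all genes and a threshold of 0.05. An additive fit of day and genotype gave the difference over all days. CPM are TMM-scaled. The 3 residual degrees of freedom come from the knockout lines, so each p assumes that the single wild-type library of a day varies as they do, and genotype and line cannot be told apart. Nothing says that libraries of a line came from separate cultures, so p-values measure only the spread between these samples. Log2(TPM + 1) values describe the wild-type course.

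The comparisons of day 8 with day 0 were added after seeing the data. The 10 members are always named. From each list, up to 4 genes past the threshold with the smallest adjusted p could be named, or 2 where none passed. For each member the 3 genes of at least 5 mean TPM with the highest r in log2(TPM + 1) were taken. Predicted names and the members were left out of that search. The members and lists were chosen with earlier results of these data known. The line names G6 and H8 pair knockout libraries across days by cell line. The difference between the lines correlated across days at r = 0.195 (days 0 and 4), 0.132 (days 0 and 8) and 0.354 (days 4 and 8) over 15732 genes. Alternatives were DESeq2 1.42.0, limma-voom, other scalings, filters and pseudocounts, the line as a block and leaving out each library; without both day 0 knockout libraries was added after seeing the data. DESeq2 can leave genes without an adjusted p, and shares of genes called by DESeq2 are over those that have one. The scripts were tested on simulated data.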

Additional observations from a re-analysis of the deposited data

Results flagged for a closer look

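For 2 members the genotype difference itself changed between days by the interaction test in edgeR. For Ier3 the log2 knockout to wild-type ratio was higher at day 4 than at day 0 by 2.85 (SE 0.371, adjusted p = 0.0495), with G6 and H8 giving 2.84 and 2.85. This call sits at the threshold, and its adjusted p ran from 9.93e-09 (DESeq2) to 0.228 (without knockout day 4 G6) over 16 alternatives, of which 5 passed.

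For Fosb the ratio changed from day 0 to day 8 by log2 -5.04 (SE 0.898, adjusted p = 0.0394), with G6 and H8 giving -4.59 and -5.26. Over 16 alternatives 11 passed, and the adjusted p ran from 4.91e-08 to 0.115. The day 0 end of both contrasts rests on the shallowest libraries of the series, and the part of depth was not tested.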

How the results depend on the processing

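Of 1740 recomputed member values, 1622 kept their direction and side of the threshold, except that 55 of the 1497 past it in neither fit changed sign. There were 34 that lost their call, 82 that gained one and 2 that reversed. Without knockout day 0 H8, Atf3 was at log2 -1.95 against wild type at day 0 and at 1.17 from day 0 to day 4 in knockout (adjusted p of 0.0293 and 0.0361), and without G6 these were 1.47 and -2.25, in fits whose spread comes from days 4 and 8 alone. Counts below are of the 10 members called.

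DESeq2 called 3 at day 0, 5 at day 4, 4 from day 0 to day 8 and 1 over all days. It called 16.7%, 6.45%, 19.4% and 14.6% of the genes it gave an adjusted p. For the changes in genotype difference DESeq2 called 5 (day 4 against day 0), 2 (day 8 against day 4) and 3 (day 8 against day 0). Here it called 8.86%, 7.53% and 17.4% of the genes it gave an adjusted p. Limma-voom called 1 at day 4, beside 0.226% of all genes. Log2(TPM + 1) and log2(TPM + 0.1) each called 1 at day 0, beside 7.58% and 7.28% of all genes. The mean of the per-day contrasts called 2 over all days, beside 14.5% of all genes, where the additive fit called 0.984%.

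For the genotype difference at day 4 against day 0, 0 were called with DESeq2's size factors, total count scaling, limma-voom and protein-coding genes only. These settings called 0.387%, 0.557%, 0% and 0.0058% of all genes. Either TPM pseudocount called 2, beside 1.51% (1 TPM) and 1.25% (0.1 TPM). With the line as a replicate block the count was 0, beside 0.0484% of all genes, and Ier3 had an edgeR adjusted p of 0.0635. The block changed no other count. For day 8 against day 0, 2 were called with DESeq2's size factors, total count scaling, no filter, limma-voom and either TPM pseudocount. These settings called 4.72%, 4.73%, 3%, 4.15%, 8.09% (1 TPM) and 5.62% (0.1 TPM) of all genes. With protein-coding genes only 0 were called, beside 1.71%. For day 8 against day 4, log2(TPM + 1) called 1, beside 1.36% of all genes.

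Without both day 0 knockout libraries, 4 were called at day 8 and 3 from day 4 to day 8, beside 17.6% and 0.692% of all genes. The spread of that fit comes from days 4 and 8 alone. Leaving out 1 library gave 0 to 6 at day 0, 0 to 4 at day 8, 0 to 7 from day 0 to day 4, 0 to 3 from day 4 to day 8 and 0 to 8 from day 0 to day 8. The share of all genes called moved too, over these fits from 1.53% to 6.61%, 0% to 17.3%, 2.87% to 16.5%, 0% to 0.701% and 1.88% to 9.29% in the same order. It gave 0 to 6 for the genotype difference at day 4 against day 0, 0 to 4 at day 8 against day 0, and 0 to 1 over all days, beside 0% to 0.814%, 0% to 8.80% and 0% to 1.90% of all genes. The high counts came without knockout day 0 G6 (6 at day 0, 7 to day 4, 8 to day 8). Where the count on all libraries was above 0, a count of 0 came only without a knockout library of day 4 or day 8. Over all days, Fosb was called without the wild-type day 0 library. A fit that leaves out a library gives its lone partner the spread of the other groups. The part of depth was not tested.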
